A study of Mus musculus with 6 samples.

Results

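The genes described here encode elastic fibres and the microfibrils on which they are built: Eln, Fbn1, Fbln1, Fbln2, Fbln5, Efemp1, Efemp2, Mfap4, Mfap5 and Emilin1. They were chosen by name, as 10 of the 54100 gene identifiers in the count table, and each symbol occurred in the table once. RNA was measured in Pdgfra+ fibro-adipogenic progenitors (FAPs), the mesenchymal progenitors that lie between muscle fibres, sorted from plantaris, a calf muscle, of C57BL/6 mice. One group of 3 libraries came from sham muscle and the other group of 3 from overloaded muscle, with 1000 sorted cells per tube in both. Both groups share strain, muscle and sort, and no genotype difference, drug or transgene is named. The sources used here do not give how the muscle was overloaded, the time since then, or the age and sex of the mice, nor do they state that each library came from a different mouse. All p-values therefore weigh the difference between the groups against the spread between libraries, and part or all of that spread may be technical.

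Elastic fibres let a tissue recoil after stretch. Fibrillin assembles outside the cell into microfibrils, elastin monomers are deposited on this scaffold, and lysyl oxidases crosslink them into a polymer. Fibulins bridge elastin, fibrillin and the crosslinking enzymes, and microfibril-associated proteins and EMILINs sit on the fibrils and influence their assembly, while fibrillin microfibrils also hold latent TGF-beta and BMP growth factors. In skeletal muscle, fibroblast-like cells including FAPs make much of this matrix.

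Total counts were 500402 to 754456 in sham and 850857 to 1124210 in overloaded libraries. Libraries of a group differed beyond sampling noise (chi-square per degree of freedom 3.75 to 6.61). Levels are given as CPM, counts per 1e6 counts in the tested genes after TMM scaling. Pdgfra, the marker of the sort, stood at 857 CPM on average in sham and 594 CPM in overloaded libraries (edgeR log2 fold change -0.53, adjusted p = 0.0624). The summed level of 10 FAP markers was 57380 to 74800 CPM in sham and 72360 to 84270 CPM in overloaded libraries. Within this list 2 genes rose, Col3a1 (16960 to 42940 CPM on average) and Col1a1 (4538 to 12100 CPM), which carried the higher sum, and 6 fell, Dcn, Gsn, Cd34, Pi16, Dpp4 and Clec3b, by up to a log2 fold change of -2.34 for Clec3b (edgeR adjusted p = 5.59e-08). The 8 endothelial markers summed to 122 to 228 CPM in sham and 33.5 to 90.3 CPM in overloaded libraries. Tek, which made up most of the sham sum, fell from 119 to 27.0 CPM on average (edgeR adjusted p = 5.59e-07). Of the other 7, only Flt1 had enough counts to test and was not called (edgeR adjusted p = 0.778). These 7 differed in direction. The means of Tie1, Kdr, Emcn and Esam were higher in overloaded libraries, and those of Flt1, Pecam1 and Cdh5 were lower. In the same order of groups, 9 markers of pericytes and smooth muscle summed to 143 to 195 and 108 to 165 CPM, 8 leukocyte markers to 15.8 to 27.0 and 1.92 to 20.1 CPM, 8 markers of satellite cells and myofibres to 38.7 to 56.0 and 23.1 to 41.4 CPM, and 5 Schwann cell markers to 1.35 to 12.4 and 0 to 5.77 CPM. The 6 tenocyte markers summed to 125 to 162 and 3375 to 4346 CPM, and in overloaded libraries nearly all of the sum was Thbs4, while the tendon-defining genes Scx and Tnmd held 4 and 8 counts over the sham group and 21 and 17 over the overloaded group. Myod1, Adgre1 and Sox10 had 0 counts in every library. The part of these marker levels in the results was not tested. RNA was pooled over cells, so fewer cells that express a gene and less RNA of it per cell cannot be told apart.

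With overload, transcripts of the elastic fibre genes moved in both directions. Mfap5, Emilin1, Mfap4 and Efemp2 rose, Efemp1, Fbln1 and Fbln5 fell, and Eln, Fbn1 and Fbln2 did not pass the test. The test was edgeR's quasi-likelihood F test on counts, with Benjamini-Hochberg adjustment over all 7207 genes tested and a call at an adjusted p under 0.05. Of the 10 genes, 4 were called higher and 3 lower. Over all genes tested, 15% were called higher and 14.3% lower, or 29.3% in either direction. The share called was larger among genes with more counts. At a minimum count of 30, 1611 of 3955 genes were called, and of the 9 members then tested 4 were higher and 3 lower. The 10 genes were chosen with earlier results of these data known. The log2 fold change had a median of 0.32 over the 10 genes and of -0.02 over all genes tested, and its size, sign aside, had a median of 1.16 and of 0.53. For 5 of the 10 genes every overloaded library lay above every sham library, and for 3 every one lay below. Over all genes tested, these shares were 21.2% and 20.3%, or 41.5% in either direction. All 10 passed the filter on low counts, but Efemp2 did so through the overloaded libraries alone (12.5 CPM of the library total in at least 3 libraries), so that, with its low sham level, it could be tested only because it was higher there.

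**Figure D1:**
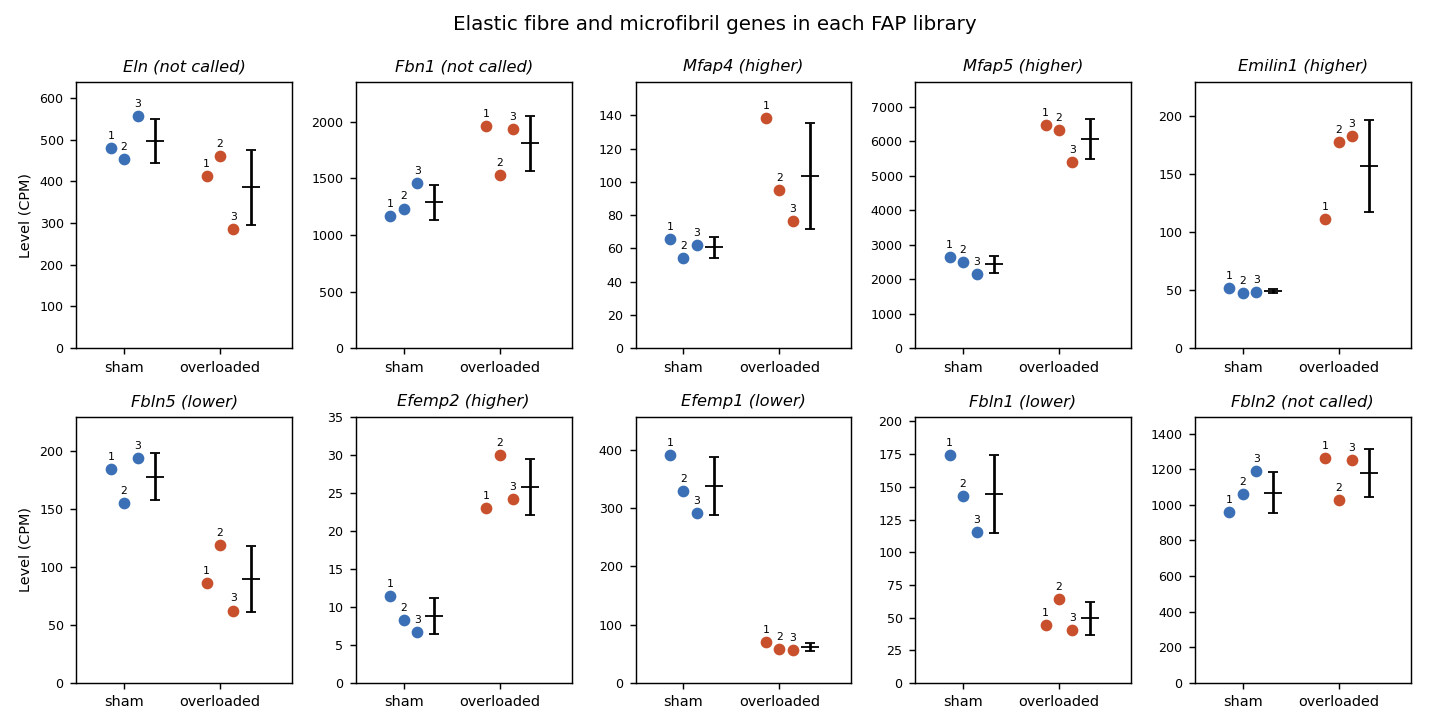
Level of each gene in CPM (vertical axes, from 0, each with its own scale) in the 3 sham (blue) and 3 overloaded (orange) libraries, numbered by replicate, with the mean and SD of each group in black. Sham and overloaded points overlap for Eln and Fbln2 and are apart for the other 8 genes.

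Elastin, the rubber-like core protein, is encoded by Eln (ENSMUSG00000029675, chromosome 5, 134702593 to 134747323, minus strand; GRCm38, GENCODE M21, for all positions). Eln stood at 481, 454 and 556 CPM in sham and at 412, 460 and 286 CPM in overloaded libraries 1 to 3. The groups overlapped, with overloaded library 2 above sham library 2 and overloaded library 3 the lowest of all. The means were 497 ± 52.6 and 386 ± 90.1 CPM (SD, n = 3 each). The log2 fold change was -0.37, with an SE of 0.21 and a 95% interval of -0.79 to 0.06 (edgeR adjusted p = 0.195), so that elastin transcripts were not called and the interval holds both a modest fall and no change.

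Fibrillin-1, the structural unit of microfibrils, is encoded by Fbn1 (ENSMUSG00000027204, chromosome 2, 125300594 to 125507993, minus strand). Fbn1 was at 1171, 1234 and 1459 CPM in sham and at 1966, 1532 and 1933 CPM in overloaded libraries. Every overloaded library lay above every sham library, the closest pair being overloaded 2 and sham 3. From 1288 ± 151 to 1810 ± 241 CPM (SD, n = 3 each), the log2 fold change was 0.49 (SE 0.19) with a 95% interval of 0.09 to 0.89, and it narrowly missed the threshold (edgeR adjusted p = 0.0557). Fbn1 was called with DESeq2 (adjusted p = 0.0365), with limma-voom (0.0428), with a minimum count of 30 (0.0498) and without overloaded replicate 2 (0.0229), and its adjusted p ranged from 0.0229 to 0.657 over 16 alternatives.

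Mfap5 (ENSMUSG00000030116, chromosome 6, 122505845 to 122529290, plus strand) encodes MAGP-2, a small glycoprotein that binds fibrillin in microfibrils. Mfap5 stood at 2636, 2501 and 2161 CPM in sham and at 6486, 6338 and 5402 CPM in overloaded libraries. Each overloaded library had more than any sham library, with a gap wider than the spread inside either group. The rise from 2433 ± 245 to 6075 ± 588 CPM (SD, n = 3 each) was 2.50-fold (log2 fold change 1.32, SE 0.19, edgeR adjusted p = 4.17e-06), and 5.74% of all genes tested had a larger log2 fold change. Mfap5 was called under all 16 alternatives, with log2 fold changes from 1.25 to 1.47.

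Emilin1 (ENSMUSG00000029163, chromosome 5, 30913402 to 30921277, plus strand) encodes a glycoprotein at the interface of elastin and microfibrils that, in mice, restrains TGF-beta processing. Emilin1 was at 51.6, 47.7 and 48.4 CPM in sham and at 112, 178 and 183 CPM in overloaded libraries. The sham libraries were nearly level, and overloaded library 1 was the lowest of its group but still above all of them. The mean went from 49.2 ± 2.04 to 158 ± 39.8 CPM (SD, n = 3 each), a 3.18-fold rise (log2 fold change 1.67, SE 0.26, edgeR adjusted p = 1.16e-05). Emilin1 was called under all 16 alternatives, and 3.16% of all genes tested had a larger log2 fold change.

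Mfap4 (ENSMUSG00000042436, chromosome 11, 61485431 to 61488900, plus strand) encodes a fibrinogen-domain protein that binds elastin and collagen. Mfap4 was at 65.9, 53.9 and 61.9 CPM in sham and at 138, 95.3 and 76.3 CPM in overloaded libraries. The groups were apart, but overloaded library 3 lay only a little above sham library 1, and overloaded library 1 stood well above the other two of its group. The mean rose from 60.6 ± 6.08 to 103 ± 31.9 CPM (SD, n = 3 each), a 1.70-fold rise (log2 fold change 0.77, SE 0.26, edgeR adjusted p = 0.0275). This call was lost with DESeq2 (adjusted p = 0.0611) and without sham replicate 2 (0.0975), sham replicate 3 (0.0669) or overloaded replicate 1 (log2 fold change 0.52, adjusted p = 0.190). It was also lost with the background covariate described below (edgeR adjusted p = 0.278). Over 16 alternatives Mfap4 was called in 11, and its adjusted p ranged from 0.0110 to 0.278.

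The fibulins are matrix proteins built from EGF-like repeats with a shared carboxyl-terminal domain. In the short fibulin class, Efemp2 encodes fibulin-4, which in mice is required for elastic fibre formation and for lysyl oxidase to reach elastin. Fbln5 encodes fibulin-5, which binds elastin, lysyl oxidase-like 1 and cell-surface integrins. Efemp1 encodes fibulin-3, whose loss in mice thins elastic fibres in fascia. The longer Fbln1 and Fbln2 encode fibulin-1, which lies within elastin cores and basement membranes, and fibulin-2, which binds fibrillin and basement membrane proteins.

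Efemp2 (ENSMUSG00000024909, chromosome 19, 5473954 to 5482517, plus strand) was at 11.4, 8.30 and 6.73 CPM in sham and at 23.1, 30.1 and 24.3 CPM in overloaded libraries. Behind these levels were sham counts of 8, 4 and 5 and overloaded counts of 24, 24 and 21, the fewest of the 10 genes. The lowest overloaded library nevertheless lay well above the highest sham library. The mean of 8.83 ± 2.41 rose to 25.8 ± 3.75 CPM (SD, n = 3 each), 2.88-fold (log2 fold change 1.52, SE 0.46, edgeR adjusted p = 0.0115). Efemp2 was called in 13 of the 15 alternatives in which it was tested, with adjusted p from 0.0114 to 0.0624. The call was lost without sham replicate 3 (edgeR adjusted p = 0.0624) and with the background covariate described below (0.0504).

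Efemp1 (ENSMUSG00000020467, chromosome 11, 28853204 to 28926743, plus strand) went the other way, at 391, 330 and 292 CPM in sham and at 70.2, 58.9 and 56.7 CPM in overloaded libraries. The highest overloaded library was far below the lowest sham library, and the overloaded libraries lay close together. The mean fell from 338 ± 49.9 to 61.9 ± 7.25 CPM (SD, n = 3 each), 5.42-fold lower in overloaded FAPs (log2 fold change -2.44, SE 0.23, edgeR adjusted p = 1.77e-09). Of the 7207 genes tested, 0.708% had a lower log2 fold change than Efemp1. It was called under all 16 alternatives, with log2 fold changes between -2.52 and -2.28.

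Fbln1 (ENSMUSG00000006369, chromosome 15, 85205949 to 85286535, plus strand) was at 175, 143 and 116 CPM in sham and at 44.2, 64.0 and 40.5 CPM in overloaded libraries. The groups were apart, with sham library 3 the lowest of its group and overloaded library 2 the highest of its own. The mean fell from 144 ± 29.5 to 49.6 ± 12.6 CPM (SD, n = 3 each), 2.92-fold lower (log2 fold change -1.55, SE 0.26, edgeR adjusted p = 2.96e-05), and Fbln1 was called under all 16 alternatives.

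Fbln5 (ENSMUSG00000021186, chromosome 12, 101746565 to 101819055, minus strand) was at 185, 156 and 194 CPM in sham and at 86.6, 119 and 62.5 CPM in overloaded libraries. The groups were apart, with overloaded library 2 the nearest to the sham libraries. The mean fell from 178 ± 20.0 to 89.4 ± 28.4 CPM (SD, n = 3 each), 2.0-fold lower (log2 fold change -1.0, SE 0.24, edgeR adjusted p = 0.00226).

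Fbln2 (ENSMUSG00000064080, chromosome 6, 91212455 to 91272540, plus strand) was at 961, 1058 and 1188 CPM in sham and at 1264, 1026 and 1252 CPM in overloaded libraries. The groups overlapped, since overloaded library 2 lay below sham libraries 2 and 3. The means were 1069 ± 114 and 1180 ± 134 CPM (SD, n = 3 each). The log2 fold change was 0.14, with an SE of 0.19 and a 95% interval of -0.25 to 0.54 (edgeR adjusted p = 0.628).

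Reads of olfactory and vomeronasal receptor genes, taken as background since FAPs are not known to express them, differed between the libraries. They made up 1445, 1819 and 781 CPM of the library total in sham and 308, 1092 and 232 in overloaded libraries 1 to 3, with overloaded library 2 the highest of its group. This library was the overloaded one nearest to the sham mean for Eln, Fbn1, Fbln1, Fbln2 and Fbln5. It was not the nearest for Efemp1, Efemp2, Emilin1, Mfap4 or Mfap5, and for Efemp2 it was the farthest. How often this library was the nearest over all genes tested was not computed. Whether these genes follow the background level more than other genes do was thus not tested. With the background share as a covariate, 2 genes were called higher (Mfap5 and Emilin1) and 2 lower (Efemp1 and Fbln1). Fbln5 (adjusted p = 0.0846), Mfap4 (0.278) and Efemp2 (0.0504) were no longer called in that edgeR fit, with log2 fold changes of -0.85, 0.66 and 1.85.

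**Figure D2:**
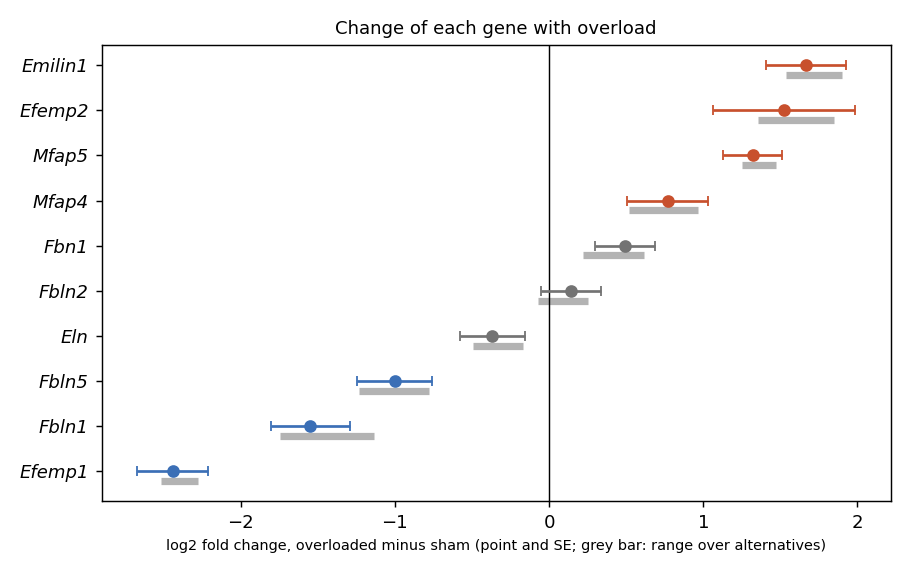
Log2 fold change of each gene, overloaded minus sham (horizontal axis), with its SE; orange marks genes called higher, blue lower and grey not called, and the grey bars span the alternative settings. From Efemp1 at -2.44 to Emilin1 at 1.67, only the bar of Fbln2 crosses 0.

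Exons of 4 of the 10 genes overlap those of a gene on the opposite strand, and the sources used here do not give the strand setting of the counting. Efemp2 shares 173 bases with Mus81, which had 22 counts in all 6 libraries, and Mfap4 shares 89 bases with Mapk7, which had 41. Eln overlaps Gm30003, with 1 count, and Fbn1 overlaps Gm9913, with 0 counts. Without that setting, it is not known whether reads of such partners are among the counts of the gene itself.

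The ratio of related genes was then taken within each library, where scaling between libraries cancels out. Transcripts differ in how well they are captured, so the change of a ratio is read and not its level. The Efemp1 to Efemp2 count ratio, on the log2 scale, was 5.01, 5.15 and 5.30 in sham and 1.58, 0.96 and 1.20 in overloaded libraries. The ratio of fibulin-3 to fibulin-4 transcripts was thus 15-fold lower on average in overloaded libraries, with no overlap between the groups. The Fbln5 to Efemp2 ratio was 5.69-fold lower and the Fbln1 to Fbln2 ratio 3.22-fold lower. Efemp2 had sham counts of only 8, 4 and 5, and it passed the filter on low counts through the overloaded libraries alone. Part of the change in both ratios to Efemp2 is thus its rise from few counts. The Eln to Fbn1 ratio was -1.28, -1.44 and -1.39 in sham and -2.25, -1.73 and -2.76 in overloaded libraries on the log2 scale, or 1.84-fold lower on average, although neither gene was called by itself. The Mfap5 to Mfap4 ratio was 1.52-fold higher. For all 5 pairs the groups did not overlap, but the share of other gene pairs without overlap was not computed. Over single genes tested it was 41.5%. For Efemp1 to Efemp2 and Fbln5 to Efemp2 the lack of overlap had to follow, since both genes of each pair were apart in opposite directions. With 3 libraries against 3, an exact two-sided permutation test gave its smallest possible value for each (p = 0.1, adjusted p = 0.1 over the 5 pairs), so that no pair could pass a threshold of 0.05.

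**Figure D3:**
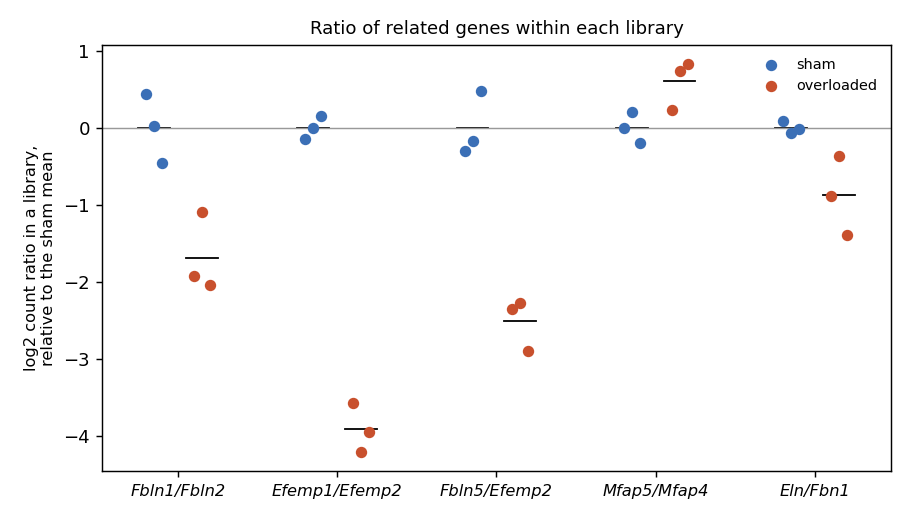
Log2 count ratio of 5 gene pairs in each library, relative to the mean of the sham libraries (vertical axis), for 3 sham (blue) and 3 overloaded (orange) libraries, with group means as black lines. The Efemp1 to Efemp2 ratio lies farthest from sham, with a mean difference of -3.91 on the log2 scale. Efemp2 had few counts in sham.

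Promoter sequence is shown for the 4 fibulin genes that were called, because the closely related Efemp1 and Efemp2 moved in opposite directions and Efemp1, Fbln1 and Fbln5 fell together. RefSeq (GRCm38.p6) gave windows from 250 bases before to 50 bases after a start site for 7 of the 10 genes, 11 windows in all; Eln, Mfap4 and Mfap5 were not matched. Where a gene had several windows, the one nearest its annotated start is printed: chr11:28852955-28853254, plus strand, for Efemp1, chr19:5473696-5473995, plus strand, for Efemp2, chr15:85205699-85205998, plus strand, for Fbln1 and chr12:101819070-101819369, minus strand, for Fbln5. Capitals mark matches, on either strand, to any of 7 motifs.
Efemp1: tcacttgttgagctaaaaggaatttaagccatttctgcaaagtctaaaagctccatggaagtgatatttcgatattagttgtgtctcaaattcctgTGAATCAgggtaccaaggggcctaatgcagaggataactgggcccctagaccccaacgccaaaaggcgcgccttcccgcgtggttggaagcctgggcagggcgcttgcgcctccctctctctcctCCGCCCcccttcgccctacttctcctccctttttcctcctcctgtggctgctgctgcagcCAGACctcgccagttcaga
Efemp2: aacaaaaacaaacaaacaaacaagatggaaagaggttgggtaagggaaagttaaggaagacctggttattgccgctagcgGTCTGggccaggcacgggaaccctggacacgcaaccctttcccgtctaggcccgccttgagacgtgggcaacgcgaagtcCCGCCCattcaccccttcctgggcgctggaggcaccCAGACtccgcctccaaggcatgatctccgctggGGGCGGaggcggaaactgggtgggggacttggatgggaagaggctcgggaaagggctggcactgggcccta
Fbln1: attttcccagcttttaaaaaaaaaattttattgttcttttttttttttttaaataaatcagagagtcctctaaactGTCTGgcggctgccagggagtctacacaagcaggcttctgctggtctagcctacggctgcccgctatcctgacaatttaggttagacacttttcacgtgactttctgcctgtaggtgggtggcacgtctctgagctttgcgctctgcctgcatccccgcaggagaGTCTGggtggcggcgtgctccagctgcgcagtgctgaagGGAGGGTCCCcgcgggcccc
Fbln5: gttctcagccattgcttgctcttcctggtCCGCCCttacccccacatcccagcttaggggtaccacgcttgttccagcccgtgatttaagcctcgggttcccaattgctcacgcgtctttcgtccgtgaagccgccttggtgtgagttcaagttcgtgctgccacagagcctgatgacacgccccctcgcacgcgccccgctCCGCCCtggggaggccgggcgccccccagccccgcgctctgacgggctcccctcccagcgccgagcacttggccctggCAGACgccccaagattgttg
The motifs were TEAD (CATTCC), AP-1 (TGANTCA), SMAD (CAGAC), the GC box (GGGCGG), the TATA box (TATAAA), the CArG box and NF-kappaB. In the Efemp1 window the match to the AP-1 letters, TGAATCA, begins 154 bases before the start site. The pattern searched for allows any base at its middle position N, and 7.81% of 32851 RefSeq promoter windows hold a match to it. The printed Efemp1, Efemp2 and Fbln5 windows hold both SMAD letters and GC boxes, and the printed Fbln1 window holds SMAD letters and an NF-kappaB match. The other Fbln1 window, not printed, also holds GC boxes. Of the 7 genes with windows, 5 held SMAD letters and 6 GC boxes, the latter including Fbln2 and Fbn1, which were not called. SMAD letters were present in 49.6% of all windows, GC boxes in 35.7% and NF-kappaB matches in 8.46%. None of the 11 windows held TEAD letters, the TATA box or the CArG box, which were in 14.7%, 13.6% and 1.63% of all windows. Efemp1 and Efemp2, which moved in opposite directions, thus share SMAD letters and GC boxes, and these matches are letters in a window, not shown binding sites. The GC content of the printed windows was 54.3% for Efemp1, 60.3% for Efemp2, 51.7% for Fbln1 and 65.7% for Fbln5, against a median of 52.7% over all windows.

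Other genes of elastic fibre assembly were taken from a fixed list of 63, chosen with earlier results of these data known. Of these, 42 had enough counts to test. Of the 42, 14 were called higher, 16 lower and 12 not, or 71.4% called in either direction. Over all genes tested, 29.3% were called (15% higher and 14.3% lower). Among the genes called, Ltbp2 and Loxl4 passed the filter on low counts through the overloaded libraries alone, and Ctsa through the sham libraries alone. The median log2 fold change of the 42 genes was -0.20. Roles differed in direction by their counts, without a test of one role against another. All 5 lysyl oxidase genes, whose enzymes crosslink elastin and collagen, rose. Called lower were 4 of 6 tested genes listed as relatives of the members and 3 of 5 tested microfibril-binding ADAMTS and ADAMTS-like genes. The 4 include Mfap1b, a relative by name only, and Fbln7, whose groups overlapped.

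Loxl1, whose enzyme acts on elastin and binds fibulin-5, was at 239, 220 and 256 CPM in sham and at 470, 726 and 576 CPM in overloaded libraries (log2 fold change 1.31, SE 0.21, edgeR adjusted p = 1.93e-05). Lox rose most of the 5, with a log2 fold change of 3.96 and an SE of 0.24, and Loxl3 and Loxl2 rose by 1.56 (SE 0.40) and 0.80 (SE 0.19) on that scale. Loxl4 went from 12 sham to 147 overloaded counts (log2 fold change 3.06, SE 0.63, edgeR adjusted p = 0.00196) and passed the filter through the overloaded libraries alone. With the background covariate, Loxl2 (edgeR adjusted p = 0.0661) and Loxl4 (0.0671) were not called.

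Among the relatives, Emilin2, a paralog of Emilin1, fell from 166 ± 8.46 to 70.9 ± 5.57 CPM (SD, n = 3 each; log2 fold change -1.23, SE 0.23, edgeR adjusted p = 1.51e-04), while Emilin1 itself rose. Hmcn2, encoding a hemicentin related to the fibulins, fell from 70.9 ± 5.10 to 27.6 ± 6.48 CPM (log2 fold change -1.36, SE 0.31), a call lost with the background covariate (edgeR adjusted p = 0.0581). Fbln7, encoding fibulin-7, was called lower (edgeR adjusted p = 0.0433), but its sham libraries at 50.1, 12.4 and 40.4 CPM overlapped overloaded libraries at 20.2, 17.6 and 10.4 CPM, and 3 of 15 alternatives called it. Mfap1b was called lower (edgeR adjusted p = 0.0258), by 8 of 15 alternatives; it has a near-identical copy in Mfap1a, so its counts are uncertain, and despite its name its protein is known as a splicing factor. Mfap2, encoding MAGP-1, the paralog of the Mfap5 product, was at 46.5 ± 6.31 and 49.5 ± 9.88 CPM and was not called (log2 fold change 0.08, SE 0.30, edgeR adjusted p = 0.880), with a sign that turned in some alternatives. Fbn2, the other fibrillin gene of the mouse, had 12 and 11 counts and was not tested.

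Of the latent TGF-beta binding protein genes, whose products associate with fibrillin microfibrils, 1 rose, 2 fell and 1 was not called. Ltbp4, which also binds fibulin-4 and fibulin-5 in elastic fibre assembly, was at 680, 782 and 1048 CPM in sham and at 278, 399 and 244 CPM in overloaded libraries (log2 fold change -1.45, SE 0.22, edgeR adjusted p = 8.71e-06). Ltbp1 fell from 432 ± 82.5 to 188 ± 18.1 CPM (SD, n = 3 each; log2 fold change -1.20, SE 0.21). Ltbp2, whose product binds fibulin-5 and, unlike its relatives, is not known to bind latent TGF-beta, had no sham count and 69 overloaded counts, at least 16.4-fold higher against a floor of 3 counts over the sham group, and it passed the filter through the overloaded libraries alone. Ltbp3 was at 10.7 ± 4.37 and 14.8 ± 4.63 CPM and was not called (edgeR adjusted p = 0.579).

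Of the ADAMTS class, Adamtsl4, Adamtsl3 and Adamtsl2, whose products bind fibrillin microfibrils or resemble those that do, fell, with log2 fold changes of -1.50 (SE 0.26), -1.09 (SE 0.24) and -1.61 (SE 0.40), and the Adamtsl2 call was lost with the background covariate (edgeR adjusted p = 0.0931). Adamts10 and Adamtsl5 were not called (edgeR adjusted p = 0.0623 and 0.102). Of 7 integrin subunit genes tested, Itga5 rose by 2.11 (SE 0.29) and Itgb1 by 0.68 (SE 0.20) on the log2 scale, the subunits of the fibronectin receptor that also recognises fibrillin-1. Itgb1 was not called with the background covariate (log2 fold change 0.46, edgeR adjusted p = 0.331) or without overloaded replicate 3 (0.52, adjusted p = 0.0761). Itgb5 fell by 0.88 (SE 0.27) and was called in 12 of 16 alternatives, the call being lost with that covariate, with no filter on low counts and without sham replicate 2 or overloaded replicate 2. The other 4 subunits, among them Itgav and Itga9, were not called. Itga9 was at 61.57, 109.9 and 57.86 CPM in sham and at 69.25, 21.32 and 25.45 CPM in overloaded libraries. Its log2 fold change was -0.92 (SE 0.39, edgeR adjusted p = 0.088), and 4 of 16 alternatives called it lower.

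Of the growth factor genes and the proprotein convertase Furin, Tgfb1 rose from 8.58 ± 5.73 to 29.7 ± 6.07 CPM (log2 fold change 1.68, SE 0.47), Furin by 0.88 (SE 0.24) and Tgfb2 by 0.60 (SE 0.21) on the log2 scale. Bmp2 and Bmp4 fell, with log2 fold changes of -1.06 (SE 0.23) and -0.70 (SE 0.22). Tgfb1 had only 18 counts over the sham group and 80 over the overloaded group. It was past the filter level in 1 sham library and in 3 overloaded libraries. The Tgfb1 call was lost with the background covariate (edgeR adjusted p = 0.0761). Tgfb2 was called in 10 of 16 alternatives, and not with the covariate, after thinning or without sham replicate 1, 2 or 3 or overloaded replicate 1. Bmp4 was called in 11 of 16, and not with the covariate (log2 fold change -0.43, edgeR adjusted p = 0.368), with no filter on low counts or without sham replicate 1, sham replicate 2 or overloaded replicate 3. Among proteases that can cleave elastin, the gelatinase gene Mmp2 fell from 744 ± 16.0 to 419 ± 69.3 CPM and Ctsl, encoding cathepsin L, was called lower (edgeR adjusted p = 0.0462, past the threshold in 7 of 16 alternatives). Ctsk, encoding cathepsin K, rose from 102 ± 26.4 to 165 ± 19.0 CPM (log2 fold change 0.71, SE 0.24), a call lost with the background covariate and without sham replicate 3 or overloaded replicate 1. Mmp14 was not called (edgeR adjusted p = 0.128). The elastase genes Mmp7, Mmp9 and Elane had 0 counts in every library, and Mmp12 had 2 counts in each group.

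The proteoglycan genes Bgn (biglycan) and Vcan (versican) rose by log2 fold changes of 1.68 (SE 0.23) and 1.35 (SE 0.21), while Dcn (decorin) fell by 1.31 (SE 0.19). Of the elastin receptor complex, Ctsa, encoding protective protein cathepsin A, was called lower (edgeR adjusted p = 0.0239, past the threshold in 6 of 15 alternatives) and passed the filter through the sham libraries alone. Neu1, its sialidase, was not called (edgeR adjusted p = 0.181), and Glb1, which gives rise to the elastin-binding subunit, was not tested at 21 and 26 counts.

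**Figure D4:**
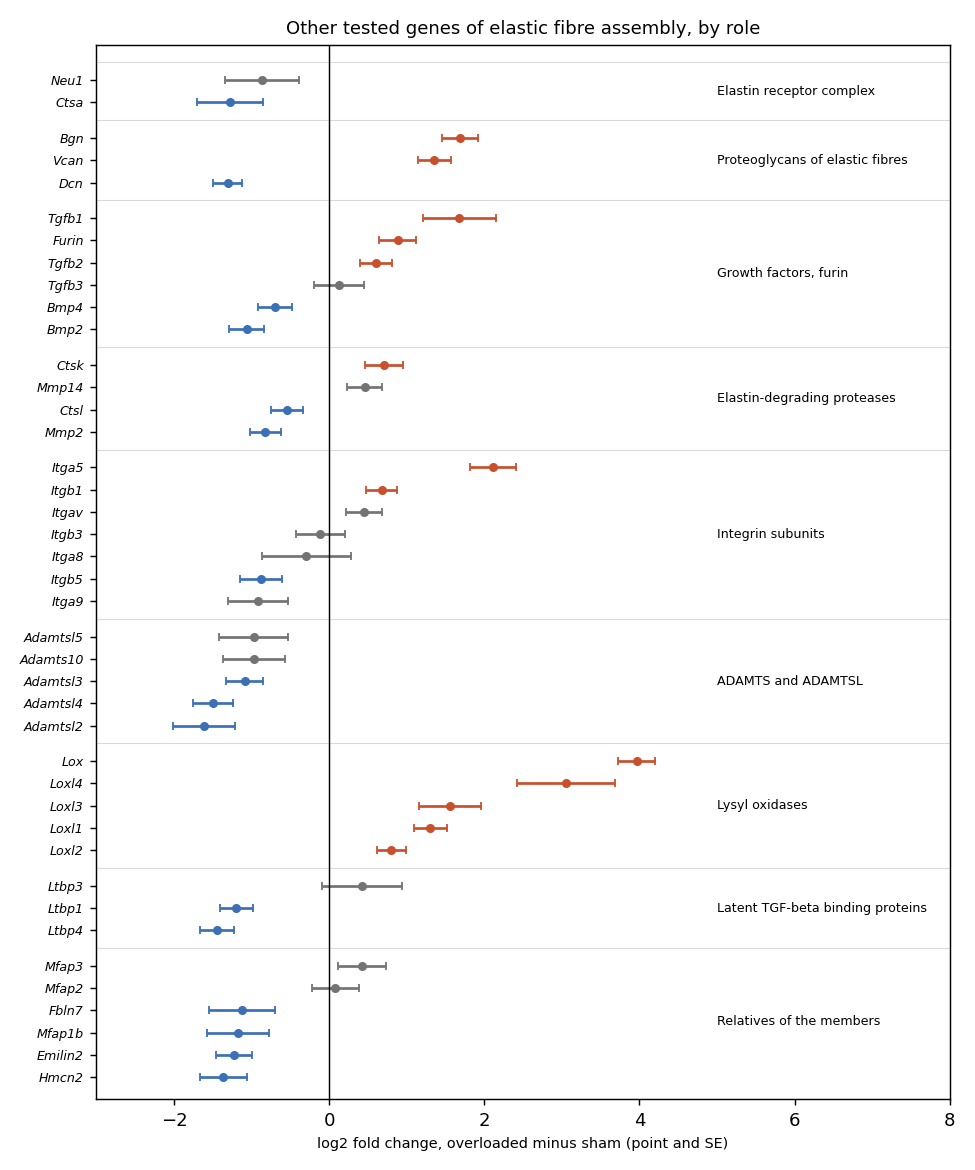
Log2 fold change with SE, overloaded minus sham (horizontal axis), of the tested genes of elastic fibre assembly other than the 10 main ones, grouped by role, with orange for called higher, blue for lower and grey for not called. Ltbp2 is left out because it had 0 counts in sham; the 5 lysyl oxidase genes all lie above 0.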

How the data were processed

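Libraries were made from sorted FAPs with a published protocol of the CEL-Seq2 type, which counts transcripts near their 3' end. The authors deposited 1 table of raw counts per gene, whole numbers with no normalisation. The submitters' processing notes name GRCm38, featureCounts 2.0.1, HISAT2 2.2.1, DESeq2 1.28.1 and Trim Galore 0.6.6. The sources used here do not give the annotation release, the strand setting or whether molecular identifiers were collapsed, so counts may not be independent molecules.

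The groups were compared in edgeR 4.0.16 under R 4.3.3 (TMM scaling, filterByExpr at its defaults of 10 counts and 15 in total, quasi-likelihood F test with robust dispersions, Benjamini-Hochberg adjustment over 7207 genes). The median SE of a log2 fold change was 0.33. An SE is the log2 fold change divided by the square root of F, and 95% intervals use the t distribution of the fit. Ratios were log2 of counts plus 0.5, tested by exact permutation in SciPy 1.17.1. Alternatives used DESeq2 1.42.0, limma 3.58.1 (voom), other scalings and filters, thinning to 500402 counts, the background share, a replicate block and leaving out each library.

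The members and lists were chosen with earlier results of these data known. All 10 members are named, with up to 4 called genes per role in order of adjusted p and every gene of a role with 4 or fewer tested. Loxl3, Tgfb2, Itgav, Itga9, Adamts10, Adamtsl5, Mfap2, Fbn2 and Glb1 were added after their values were seen. The same holds for the proteases at or near 0 and the marker genes named.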

Additional observations from a re-analysis of the deposited data

How the results depend on the processing

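Of 16 alternatives, the same 3 genes (Efemp1, Fbln1 and Fbln5) were called lower in 15, and Mfap5 and Emilin1 were called higher in all 16. With the background share as a covariate, 2 of the 10 genes were higher and 2 lower, against 498 higher and 449 lower genes over the whole table, and 8 and 8 of the other pathway genes were higher and lower; the cause was not tested. Leaving out each library in turn gave 2 to 5 members higher and 3 lower, 12 to 14 other pathway genes higher and 12 to 14 lower, and 853 to 1073 genes higher and 742 to 960 lower over the table. The lowest of these, 2 members higher, came without sham replicate 3, where Mfap4 and Efemp2 were not called. DESeq2 called 4 members higher, 3 of them shared with the main 4, with Fbn1 in place of Mfap4, and a minimum count of 30, which leaves Efemp2 untested, also called Fbn1. Among the 10 genes the sign turned once, for Fbln2 with the background covariate (log2 fold change -0.074). Among the other genes it turned for Itga8 (0.71) and Tgfb3 (-0.31) with that covariate, and for Mfap2 (-0.12) and Tgfb3 (-0.027) after thinning. Without 1 library it ranged from -0.0081 to 0.26 for Mfap2, from -0.15 to 0.33 for Tgfb3 and from -0.35 to 0.24 for Itgb3, and none of these 4 genes was called in any of those fits. The ratios of all 5 pairs kept their sign without any 1 library, an alternative chosen after seeing the data.

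Libraries of the groups share replicate numbers in their titles, but deviations of same-numbered libraries were nearly uncorrelated across genes (0.0082, 0.014 and 0.015). Sham library 1 correlated best with overloaded library 3, and sham libraries 2 and 3 with the overloaded libraries of the same number. All correlations of this kind lay between -0.025 and 0.015. With the replicate block, 4 members were called higher and 3 lower, the same as without it, and 1043 genes were higher and 993 lower over the table. Scaling by library size only moved the median log2 fold change of all genes to -0.09 and gave 971 higher and 1157 lower genes. Depth limits Efemp2 most, at 17 counts in sham, and 21 of the 63 other pathway genes could not be tested.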
